A study of Mus musculus with 2 samples.

Results

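Primary cultures of aortic vascular smooth muscle cells (VSMCs) contained a small population of endothelial cells (ECs), and its transcripts are described here. A barcode counted as a cell from 300 detected genes and 3000 unique molecular identifiers (UMIs, one per captured mRNA molecule) upwards, if mitochondrial genes held less than 20% of its UMIs. The EC members were chosen by the counts of 4 genes: a kept cell was a member if at least 2 of *Pecam1*, *Cdh5*, *Cldn5* and *Gja4* had at least 2 UMIs each. This rule found 102 of 4866 kept cells in library 1 and 141 of 6824 in library 2, in all 243 of 11690. The share was 2.10% (exact binomial 95% confidence interval 1.71 to 2.54%) in library 1 and 2.07% (1.74 to 2.43%) in library 2, with a mean of 2.08% ± 0.02 (SD, n = 2).

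Both libraries are of 1 condition: cells of the thoracic aorta of wildtype mice on a C57BL6/N background, without any treatment, on day 5 of primary culture, measured by droplet scRNA-seq (10x Genomics, 3′ v3 chemistry). They are biological replicates 1 and 2 and the only replicates here (n = 2). Aortae of several mice were pooled for a cell preparation, the age of the mice of these 2 libraries was not given in the sources used here, and the cells had been dissociated enzymatically, grown in serum-containing medium and detached with trypsin. The libraries hold 127949633 and 132561822 UMIs. Y-linked transcripts such as *Ddx3y* were found in library 1, where no member held *Xist*, whereas *Xist* was found in 97.9% of members of library 2 and *Ddx3y*, *Eif2s3y*, *Uty* and *Kdm5d* in none. Library and sex therefore cannot be told apart. The libraries shared 9 barcodes, none of which belonged to a member.

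ECs line the lumen of all vessels. They take up signals from blood flow and from growth factors of the VEGF and angiopoietin families, and they act on the underlying smooth muscle through nitric oxide, endothelin, prostacyclin and natriuretic peptides, several of which change the cGMP level of VSMCs. Arterial, venous, capillary and lymphatic ECs differ in their transcription factors and surface molecules, with Notch signaling and SOX17 in arteries, NR2F2 in veins and PROX1 in lymphatic vessels.

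Values per gene are CPM: the UMIs of a gene summed over the cells of a class in a library, divided by all UMIs of that sum and scaled to 1000000. CPM are not divided by transcript length, so they are compared between classes and not between genes. Levels are given as library 1 and then library 2. The 4 genes of the rule describe the choice of cells and were left out of all tests. *Pecam1*, an adhesion molecule at EC contacts, had 658 and 680.2 CPM in members and 0.468 and 0.50 CPM in the other kept cells. VE-cadherin *Cdh5* had 509.6 and 554 CPM in members and 0.102 and 0.230 CPM in the other kept cells, the tight junction gene *Cldn5* 497 and 515 CPM against 0.0936 and 0.123 CPM, and the connexin gene *Gja4* 621 and 609 CPM against 0.834 and 1.07 CPM. At least 2 UMIs of *Cdh5* were found in 97.1% and 92.2% of members, and at least 2 of *Cldn5* in 69.6% and 67.4%.

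Counts of kept cells by the number of rule genes at 2 UMIs describe the choice of members. In library 1, 4748 kept cells had none of the 4 genes at 2 UMIs, 16 had 1, 12 had 2, 33 had 3 and 57 had all 4. In library 2 the numbers were 6648, 35, 26, 42 and 73. The cells were set against 18 further genes of endothelial identity, such as *Tie1*, *Tek*, *Kdr*, *Emcn* and *Egfl7*, which the rule did not use. Cells just outside the rule, with 1 gene at 2 UMIs, had a median summed level of these 18 genes of 161 and 92.7 CPM per cell, and a median of 3 and 2 of the 18 genes were detected. Cells just inside the rule, with 2 genes, had 7320 and 10661 CPM and 12 detected genes in both libraries. The data thus did not go against the endothelial label. Members with all 4 genes had 9226 and 9197 CPM.

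For a view of the control regions of these genes, RefSeq promoters of mouse build GRCm38.p6 (250 bases before an annotated RefSeq start, read 5′ to 3′ on the gene's strand) are shown for both genes of the rule that had an entry, *Cldn5* and *Gja4*, and for 2 of the identity genes, *Tie1* and *Egfl7*. A RefSeq start can lie inside the GENCODE span of a gene, as it does for *Tie1* and *Egfl7*, and of the 3 starts listed for *Egfl7* the first in the table was taken, as for every gene. Capitals mark the letters GGAAGT, the core recognized by many ETS factors, on either strand.
Cldn5, chr16:18776597-18776846, plus strand: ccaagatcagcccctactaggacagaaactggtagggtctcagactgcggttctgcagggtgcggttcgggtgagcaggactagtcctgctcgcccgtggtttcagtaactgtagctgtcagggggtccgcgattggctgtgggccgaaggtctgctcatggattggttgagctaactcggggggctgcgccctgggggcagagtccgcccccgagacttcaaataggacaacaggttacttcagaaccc
Gja4, chr4:127314040-127314289, minus strand: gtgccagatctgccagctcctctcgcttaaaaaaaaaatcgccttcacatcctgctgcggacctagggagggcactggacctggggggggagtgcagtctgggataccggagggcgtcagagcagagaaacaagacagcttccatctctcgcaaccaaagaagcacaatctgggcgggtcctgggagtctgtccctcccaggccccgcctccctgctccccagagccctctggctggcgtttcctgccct
Tie1, chr4:118489850-118490099, minus strand: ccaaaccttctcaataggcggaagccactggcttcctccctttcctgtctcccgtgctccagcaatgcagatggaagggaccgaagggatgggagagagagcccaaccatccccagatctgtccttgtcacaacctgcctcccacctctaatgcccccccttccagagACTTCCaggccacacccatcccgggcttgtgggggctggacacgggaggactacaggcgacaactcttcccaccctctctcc
Egfl7, chr2:26580833-26581082, plus strand: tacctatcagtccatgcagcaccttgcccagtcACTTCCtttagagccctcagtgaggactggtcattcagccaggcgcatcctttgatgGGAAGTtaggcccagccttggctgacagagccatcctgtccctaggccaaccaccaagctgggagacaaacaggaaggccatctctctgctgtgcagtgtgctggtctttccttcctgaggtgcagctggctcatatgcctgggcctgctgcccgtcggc
The letters occur once in the *Tie1* window, in 2 places in the *Egfl7* window and in neither window of the rule genes. Of 27025 mouse promoters of this length, 5401 (20%) held GGAAGT on either strand. Of the 18 identity genes, 11 had an entry, and GGAAGT was present for 5 of them (45.5%): *Tie1*, *Kdr*, *Flt1*, *Egfl7* and *Eng*. It was present for 4 of the 10 genes with an entry among the 12 genes most in excess in members described below, for 2 of 8 with an entry among the 12 named lower genes, and for 0 of 10 in a list of contractile smooth muscle genes. A second motif, CATTGT, which many SOX factors recognize, was present in 11% of all promoters in 0 of the 11 identity promoters, in 1 of the 10 promoters of the named higher genes, in 0 of the 8 of the named lower genes and in 2 of the 10 contractile promoters. Neither motif contains the other. These matches are a description of the windows and were not tested.

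Members had fewer UMIs than their neighbours in the dish. Their median was 14629 and 10250 UMIs per cell against 22416 and 16444 in the other kept cells, and mitochondrial genes took a median of 4.06% and 5.78% of their UMIs against 3.69% and 5.06%. All levels were therefore compared as CPM, and the fits were repeated with other cells matched in UMI count.

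Some members also carried transcripts of smooth muscle cells or fibroblasts. Their share was measured with 12 genes, among them *Acta2*, *Tagln*, *Myh11*, *Col1a1* and *Dcn*. In the other kept cells these genes took a median of 1.30% and 0.826% of the UMIs of a cell, and in members 0.0467% and 0.0374%. A member was called mixed if its share was over the 5th percentile of the other kept cells of its library, 0.517% and 0.243% of UMIs. This was so for 21 members of library 1 (20.6%, 95% confidence interval 13.2 to 29.7%) and for 26 of library 2 (18.4%, 12.4 to 25.8%). The mixed members had a median of 37082 and 18793 UMIs, against 12899 and 9104 in the 81 and 115 unmixed members, and they held 89.8% and 89.9% of all members' UMIs of the 12 genes. Of the members, 17 and 24 lay within 2-fold of the dividing line. Doublets, which join 2 cells in a droplet, and cells that truly express both sets of genes were not told apart here, and no doublet caller was run.

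**Figure D1:**
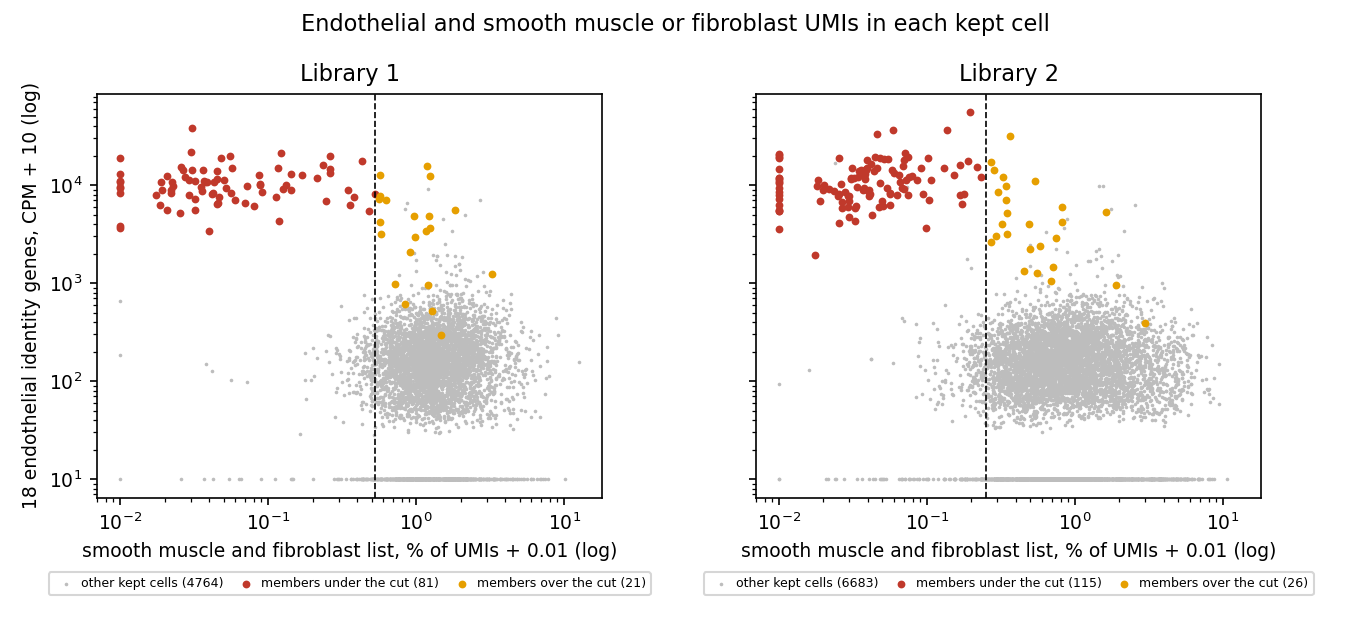
Each point is a kept cell of library 1 (left) or library 2 (right). The horizontal axis is the percent of its UMIs from 12 smooth muscle and fibroblast genes plus 0.01, the vertical axis the summed CPM of 18 endothelial identity genes plus 10, both on log scales, and the dashed line is the 5th percentile of the other kept cells. The 81 and 115 members to the left of the line lie in the upper left, and the 21 and 26 members to the right of it reach down into the cloud of the other kept cells.

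In the plot of endothelial against smooth muscle and fibroblast UMIs, the unmixed members lay between 3417 and 38326 CPM of the identity genes in library 1 and between 1909.6 and 55989 CPM in library 2. Mixed members had a lower median, 3637 and 3979 CPM, against 9869 and 10613 CPM in unmixed members. Of the other kept cells, 7 and 19 reached the level of the lowest unmixed member without meeting the rule.

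To ask which genes set the ECs apart from the culture around them, the UMI sums of members and of all other kept cells were compared over the 2 libraries with edgeR's quasi-likelihood test and Benjamini-Hochberg adjustment. Of 14424 genes tested, 1124 were higher in members (7.79% of those tested) and 902 were lower (6.25%) at an adjusted p under 0.05. Because the 2 sums of a library come from the same culture, the fit was also made with the library as a block, which called 2038 genes higher and 2676 lower. Without the mixed members 1423 genes were higher and 1812 lower, and 882 of the 902 lower genes were again lower. The median log2 fold change of all tested genes was -0.08. With scaling by total UMIs in place of TMM it was 0.06, and 66.6% of the calls were then higher genes, against 55.5%. Genes that ECs share with the 4 genes of the rule had to differ between these classes, so that the calls describe what the members express and do not bear on whether they are ECs. Below, genes called higher or lower are past this test, a log2 fold change written with ± carries its SE, and a lone value after the levels of a gene is its log2 fold change. Each class has n = 2 libraries, and the fit rests on the spread between them. Counts of called genes on the lists below are to be read against the 7.79% higher and 6.25% lower of all 14424 genes tested. With the block they are to be read against 2038 higher and 2676 lower genes.

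**Figure D2:**
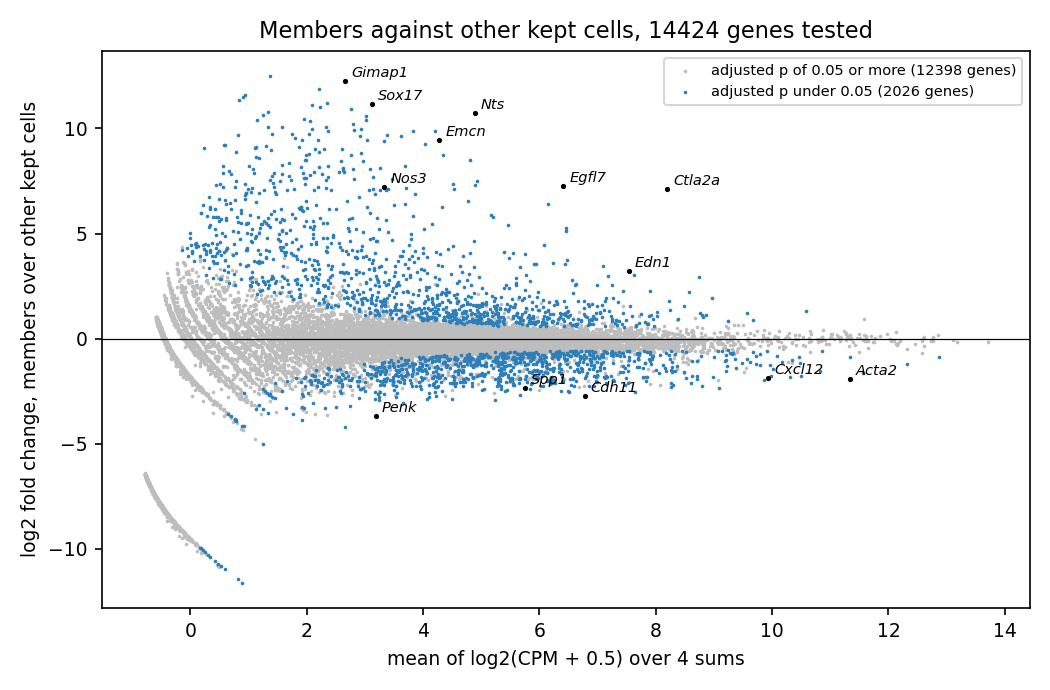
Each point is 1 of 14424 genes. The horizontal axis is the mean of log2(CPM + 0.5) over the 4 sums, the vertical axis the edgeR log2 fold change of members over other kept cells, and blue points have an adjusted p under 0.05. The excess of the higher genes reaches over 10 on the log2 scale, whereas the lower genes labelled in the plot reach to -3.69, and the arc at the lower left holds genes with 0 UMIs in members.

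The genes most in excess in members were close to absent from the remaining cells. By the rule for named genes, the largest log2 fold changes among genes with at least 20 CPM in both libraries belonged to *Gimap1*, *Klhl4*, *Cyyr1*, *Sox17*, *Mfng*, *Gimap5*, *Tmem252*, *Nts*, *Tie1*, *Tal1*, *Adgrf5* and *Gimap4*. *Gimap1* (chr6:48739054-48743795, plus strand, GRCm38), which encodes a GTPase of the immunity-associated family, had 70.3 and 86.2 CPM in members and 0.00851 and 0.0164 CPM in the other kept cells. That is 289 UMIs in members and 3 in the 11447 other cells, a ratio of 6212 (counting interval 2105 to 30299.5). *Gimap5* had 45.4 and 38.8 CPM against 0.0170 and 0.0164 CPM and *Gimap4* 34.1 and 30.8 CPM against 0.0170 and 0.0246 CPM. These 3 neighbouring genes of chromosome 6 are known best from lymphocytes. The T cell genes *Cd3d*, *Cd3e*, *Cd3g* and *Trac* had 0 UMIs in the members of both libraries.

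*Nts* (chr10:102481756-102490486, minus strand), the precursor of the peptide neurotensin, had 999.7 and 816 CPM in members and 0.323 and 0.648 CPM in the other kept cells (log2 fold change 10.73, SE 0.41, adjusted p = 8.7e-05). It was found in 30 members of library 1 and 28 of library 2, a part of the members only. *Tal1* (chr4:115056426-115071755, plus strand), a transcription factor of blood and endothelial development, had 31.6 and 25.7 CPM against 0.0170 and 0.0164 CPM. *Mfng* (chr15:78755882-78773475, minus strand), which adds sugars to Notch receptors, had 40.3 and 30.8 CPM against 0 and 0.0246 CPM, with 3 UMIs in all other cells and a ratio of 2859 (counting interval 957 to 14039). *Adgrf5* (chr17:43360451-43459557, plus strand), an adhesion G protein-coupled receptor, had 128 and 101 CPM against 0.0681 and 0.0820 CPM, and its log2 fold change was 10.40 ± 0.27. *Klhl4*, *Cyyr1* and *Tmem252* had 32.6 to 85.1 CPM in members.

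All 18 genes of endothelial identity were higher in members than in the other kept cells, with a median log2 fold change of 6.79. *Ctla2a*, a protease inhibitor, had 2761 and 4453 CPM in members and 25.5 and 22.4 CPM in the other kept cells (log2 fold change 7.10, SE 0.33, adjusted p = 0.00016). *Egfl7* (chr2:26580014-26593120, plus strand), a secreted factor of the vessel wall, had 1073 and 1067 CPM in members and 7.14 and 5.38 CPM in the other kept cells (log2 fold change 7.28, SE 0.25, adjusted p = 6.8e-05). The members of both libraries had nearly the same level of *Egfl7*, and the other kept cells less than 1% of it. The receptor gene *Tie1* (chr4:118471191-118490061, minus strand), whose promoter is printed above, had 106 and 124 CPM in members and 0.0851 and 0.0492 CPM in the other kept cells (log2 fold change 10.57, SE 0.31, adjusted p = 4.4e-05). *Emcn*, a sialoglycoprotein of the EC surface, had 242 and 564 CPM in members and 0.553 and 0.492 CPM in the other kept cells (log2 fold change 9.45, SE 0.55, adjusted p = 0.00039), and its level in members of library 2 was more than that in library 1. Von Willebrand factor *Vwf* went the other way between the libraries, with 196 and 104 CPM against 0.230 and 0.172 CPM. The smallest excess of the list was that of endoglin *Eng*, a TGF-beta co-receptor, with 634 and 549 CPM against 69.3 and 61.1 CPM and a log2 fold change of 3.04 ± 0.17.

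Of 23 listed transcription factors of ECs, 22 were tested. In members 17 were higher, 1 was lower and 4 were not called, with a median log2 fold change of 4.6. The SOXF family, which acts in vessel formation, was nearly specific for members. *Sox17* (chr1:4490931-4497354, minus strand) had 111 and 169 CPM in members and 0.0255 and 0.0820 CPM in the other kept cells (log2 fold change 11.15, SE 0.48, adjusted p = 0.00013). *Sox18* had 69.8 and 154 CPM against 0.0936 and 0.189 CPM and a log2 fold change of 9.47 ± 0.58, and *Sox7* 52.5 and 58.3 CPM against 0.213 and 0.148 CPM and 8.11 ± 0.29. Thus all 3 SOXF genes were below 0.3 CPM outside the members. Of the ETS factors, *Erg* (34.1 and 30.8 CPM against 0.681 and 1.02 CPM) and *Fli1* (101 and 103 CPM against 4.54 and 7.69 CPM) had log2 fold changes of 5.12 and 3.94, and *Ets1*, *Ets2* and *Elk3*, which the other cells also expressed, 2.01, 2.02 and 1.82. *Lmo2*, a partner of TAL1, had 256 and 271 CPM against 1.16 and 1.81 CPM (log2 fold change 7.34, SE 0.28, adjusted p = 8.1e-05). The related *Lyl1* and the homeobox gene *Hhex* had log2 fold changes of 9.47 and 9.65, *Bcl6b* of 8.82 and *Epas1*, the hypoxia-inducible factor of ECs, of 4.07. The flow-responsive factor *Klf2* had 353 and 298 CPM in members and 174 and 103 CPM in the other kept cells, and although its groups did not overlap it missed the threshold (log2 fold change 1.09, adjusted p = 0.059, and 2.5e-07 with the block). *Klf4* had 154 and 116 CPM against 163 and 165 CPM and an adjusted p of 0.18 (0.0085 with the block). The only lower factor was *Foxc1*, with 57.1 and 70.2 CPM against 89.1 and 107 CPM and a log2 fold change of -0.76 ± 0.18. Its call was lost under 4 alternatives, among them scaling by total UMIs (adjusted p = 0.081), with log2 fold changes from -0.63 to -0.75. With the block, 18 factors were higher and 3 were lower.

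Lists of vessel types were compared next. Of 17 arterial genes, 11 were higher in members and 1 was lower (13 and 3 with the block), with a median log2 fold change of 2.53. The Notch ligand *Dll4* had 41.3 and 53.7 CPM in members and 0.0340 and 0.0410 CPM in the other kept cells (log2 fold change 10.09, SE 0.33, adjusted p = 5.9e-05). *Gja5*, the connexin of arterial ECs, had 51.5 and 60.0 CPM against 0.0511 and 0.361 CPM (7.93), *Sema3g*, a secreted semaphorin, 55.0 and 42.8 CPM against 0.0596 and 0.0328 CPM (9.86) and *Stmn2*, a microtubule regulator, 98.9 and 75.4 CPM against 0.0596 and 0.385 CPM (8.47). The one arterial gene that was lower, *Cxcl12*, encodes a chemokine that the culture as a whole made in quantity, with 622 and 451 CPM against 1923 and 1689 CPM (log2 fold change -1.89, SE 0.20, adjusted p = 0.0035). *Gja4*, one of the genes that chose the members, is itself an arterial gene. Of 8 venous genes, 6 were higher and 0 lower. *Selp* and *Vwf* were among them, as was *Ephb4*, the receptor of venous identity (38.2 and 36.0 CPM against 7.10 and 6.57 CPM, log2 fold change 2.30 ± 0.19). Some of these calls rest on few UMIs, with 4 UMIs of *Aplnr* and 37 of *Lrg1* in all members. The venous factor *Nr2f2* had 74.4 and 64.0 CPM against 101 and 71.8 CPM and did not pass the test (-0.46, adjusted p = 0.23, and 0.012 with the block).

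Of 10 capillary genes, 8 were tested and 3 were higher: *Fabp4*, *Kdr* and *Gpihbp1*. *Fabp4*, a fatty acid carrier, had 1020.1 and 1011 CPM in members and 254 and 234 CPM in the other kept cells (log2 fold change 1.92, SE 0.14, adjusted p = 0.0010), and *Gpihbp1*, which anchors lipoprotein lipase, had 34 UMIs in members and 1 in all other cells. *Car4* had 0 UMIs everywhere. Of 7 lymphatic genes, 5 were tested, 3 of which were higher and 1 lower. *Prox1* had 64.7 and 58.3 CPM in members and 0.272 and 0.312 CPM in the other kept cells (log2 fold change 7.57, SE 0.22, adjusted p = 4.4e-05). *Flt4*, the receptor of VEGF-C, had 38.7 and 32.6 CPM against 0.0511 and 0.230 CPM and a log2 fold change of 7.83 ± 0.60. *Mmrn1*, a multimerin, had 26 UMIs in members and 0 in the other cells and was at least 559-fold higher, counting 3 UMIs over both libraries of the other cells. *Lyve1*, a hyaluronan receptor, had 12.2 and 1.14 CPM against 2.55 and 3.34 CPM and was found in 5 of 102 and 2 of 141 members (4.90% and 1.42%), against 5.31% and 4.85% of the other kept cells. *Ccl21a* had 0 UMIs. The lower gene was *Pdpn*, with 46.9 and 17.7 CPM against 106 and 95.4 CPM, which fibroblasts also express (-1.77, adjusted p = 0.037). With scaling by total UMIs its log2 fold change was -1.63 (adjusted p = 0.052).

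Because *Prox1* was on in few members, the unmixed members were divided by it, after its values had been seen, and the 2 groups are described without a test. At least 2 UMIs of *Prox1* were found in 14 of 81 unmixed members in library 1 (17.3%, 95% confidence interval 9.78 to 27.3%) and in 13 of 115 in library 2 (11.3%, 6.16 to 18.6%). With 3 mixed members of library 1 that also had 2 *Prox1* UMIs or more, they held 96.9% and 94.1% of the *Prox1* UMIs of all members. The unmixed Prox1-positive members were set against the 64 and 96 unmixed members with 0 UMIs, the Prox1-negative members, and 3 and 6 members with 1 UMI were left aside. Of the other kept cells, 1 of 4764 and 1 of 6683 had 2 *Prox1* UMIs. The Prox1-positive members had a median of 16103 and 11298 UMIs per cell, against 12862 and 8325. Summed over the 18 identity genes they had 10674 and 10047 CPM, against 10718 and 11809 CPM in Prox1-negative members, sums in which *Ctla2a* had the largest share of the genes (3776 and 3242 CPM in Prox1-positive and 3987 and 5619 CPM in Prox1-negative members). By at least 1 on the log2 scale in both libraries (pseudocount of 10 CPM), 5 of the 18 were lower (*Cd34*, *Flt1*, *Vwf*, *Ptprb* and *Esam*) and 3 higher (*Kdr*, *Plvap* and *Fli1*) in Prox1-positive members. The Prox1-positive sums hold 246022 and 162542 UMIs, in which a count of 0 allows up to 12.2 and 18.5 CPM (3 counts).

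The 2 groups of ECs differed in their vessel-type genes. Of the 17 arterial genes, 12 were lower in Prox1-positive members by the same criterion and 0 were higher. Over the 3378 genes with at least 50 CPM in either group, it found 210 lower (6.22%) and 165 higher genes (4.88%). The arterial list summed to 455 and 535 CPM in Prox1-positive and to 2594 and 2249.8 CPM in Prox1-negative members. *Dll4*, *Gja5*, *Sema3g* and *Stmn2* had 0 UMIs in the Prox1-positive members of both libraries. For *Stmn2* this was lower by a factor of at least 15.1 and 5.61 in libraries 1 and 2, and for *Gja5* of at least 7.20 and 4.69. *Sox17* had 28.5 and 12.3 CPM in Prox1-positive and 188 and 256 CPM in Prox1-negative members. *Hey1*, a target of Notch, was not lower in both libraries, with 24.4 and 73.8 CPM against 51.0 and 45.9 CPM. A median of 4.5 and 4 of the 17 arterial genes were detected per Prox1-positive cell and of 10.5 and 8.5 per Prox1-negative cell, although the latter had fewer UMIs.

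Venous, capillary and lymphatic genes lay the other way in part. The venous factor *Nr2f2* had 199 and 271 CPM in Prox1-positive and 24.9 and 22.4 CPM in Prox1-negative members, a ratio of 7.98 and 12.1 in the 2 libraries. It was detected in 92.9% and 84.6% of Prox1-positive and in 9.38% and 9.38% of Prox1-negative cells. *Nrp2*, a co-receptor of VEGF-C, had 232 and 154 CPM against 33.6 and 19.2 CPM. By contrast, *Selp* (48.8 and 36.9 CPM against 270.1 and 241 CPM) and *Vwf* (4.06 and 67.7 CPM against 346 and 158 CPM) were lower in Prox1-positive members. Among lymphatic genes, *Mmrn1* had 28.5 and 49.2 CPM against 0 and 0 CPM, that is 7 and 8 UMIs against 0 and 0. *Flt4* had 73.2 and 92.3 CPM against 44.5 and 29.9 CPM, and *Pdpn* 65.0 and 12.3 CPM against 5.42 and 0 CPM, where the value of library 2 rests on 2 UMIs. *Lyve1* had 13 UMIs in the Prox1-positive members of library 1 and 0 in those of library 2, and *Ccl21a* had 0 in both. The Prox1-positive members thus held part of the lymphatic list, and they are not given a vessel type here.

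Among genes over the minimum of 50 CPM, the 12 with the largest excess in Prox1-positive members, ranked by the smaller of the differences in the 2 libraries, were *H19*, *Fst*, *Serpine2*, *Nsg1*, *Ada*, *Nts*, *Lcn2*, *Fabp4*, *Fabp5*, *Neo1*, *Slc45a3* and *Tbc1d4*. *Nts* had 5808 and 6546 CPM in Prox1-positive and 428 and 65.2 CPM in Prox1-negative members, and together with the 3 mixed Prox1-positive members of library 1 these cells held 78.1% and 74.5% of the *Nts* UMIs of all members. It was detected in 100% and 92.3% of Prox1-positive and 12.5% and 8.33% of Prox1-negative cells. *Fst*, the activin inhibitor follistatin, had 1650.3 and 1606 CPM against 61.8 and 60.9 CPM, a ratio of 26.7 and 26.4. The imprinted RNA *H19* had 1175 and 406 CPM against 31.5 and 6.41 CPM and adenosine deaminase *Ada* 313 and 363 CPM against 14.1 and 12.8 CPM. Both fatty acid carriers were in excess, with 4695 and 5494 CPM against 497 and 441 CPM for *Fabp4* and 1914 and 1630.3 CPM against 129 and 169 CPM for *Fabp5*. *Plvap*, the protein of fenestral diaphragms, had 1203 and 1126 CPM against 184 and 241 CPM, *Angpt2*, the TIE2 ligand that ECs make, 784 and 615 CPM against 155 and 123 CPM, and the chemokine *Ccl2* 260.1 and 548 CPM against 27.1 and 68.4 CPM. In each of these genes both Prox1-positive sums lay above both Prox1-negative sums. For the ranked genes this follows in part from the choice, since the ranking asked for an excess in both libraries.

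The 12 genes with the largest deficit by the same ranking were *Ly6a*, *Ptgis*, *Ly6c1*, *Sfrp1*, *Cd93*, *Enpp6*, *Adh7*, *Col5a2*, *Stmn2*, *Efna5*, *Ccnd2* and *Nes*. *Ly6a*, which encodes the surface antigen SCA1, had 12.2 and 12.3 CPM in Prox1-positive and 1025 and 1115 CPM in Prox1-negative members, where the first 2 values stand for 3 and 2 UMIs. *Ly6c1* had 0 UMIs in Prox1-positive cells and was lower by a factor of at least 14.7 and 12.4. Prostacyclin synthase *Ptgis* had 4.06 and 6.15 CPM against 291 and 309 CPM, with 1 UMI in each library's Prox1-positive cells, and *Cd93*, a lectin-like surface protein of ECs, 40.6 and 24.6 CPM against 879.6 and 644 CPM, a ratio of 21.6 and 26.2 of Prox1-negative over Prox1-positive members. Also lower were the adhesion molecules *Vcam1* (28.5 and 117 CPM against 541 and 669.8 CPM) and *Icam1* (48.8 and 61.5 CPM against 208 and 175 CPM) and, within the identity list, *Cd34* (77.2 and 55.4 CPM against 450.1 and 553 CPM) and *Flt1* (138 and 105 CPM against 494 and 308 CPM). Nitric oxide synthase *Nos3* had 65.0 and 117 CPM against 148 and 154 CPM.

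**Figure D3:**
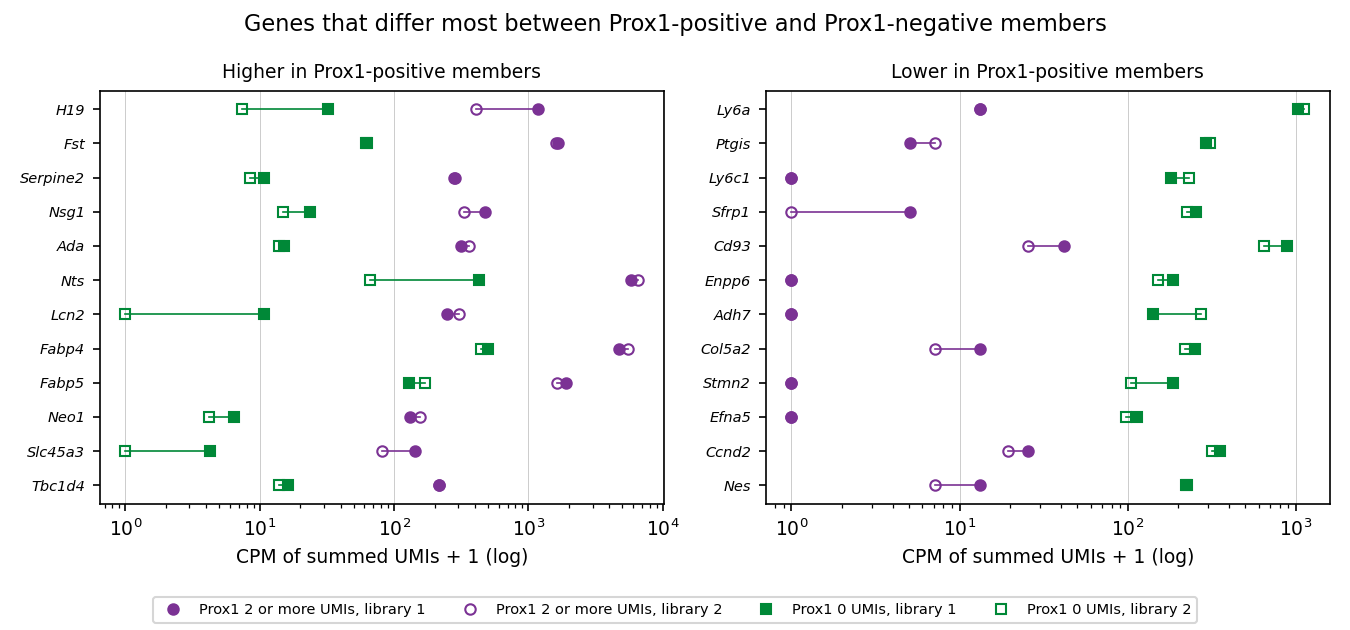
CPM of summed UMIs plus 1 (log scale) in unmixed members with at least 2 Prox1 UMIs (circles) and with 0 Prox1 UMIs (squares), filled for library 1 and open for library 2. The 12 genes on the left and the 12 on the right were chosen for the difference shown, and H19, Fst and Nts differ by over 13-fold in both libraries.

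The division by *Prox1* also bears on the comparison of all members with the other kept cells. For this, every member with any *Prox1* UMI was left out, mixed or not, also those with a single UMI. Below, this setting is named as without Prox1-positive members. The log2 fold change of *Fabp4* was then 0.60 (adjusted p = 0.051), that of *Nrp2* 0.51 (adjusted p = 0.19) and that of *Angpt2* 0.18 (adjusted p = 0.53), and none passed. *Nr2f2* was then lower in members (-1.25, adjusted p = 0.037).

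Receptors of vascular growth factors were among the genes with a large excess. Of 13 VEGF and angiopoietin genes, 8 were higher in members and 0 lower (10 and 0 with the block). The main VEGF receptor *Kdr* had 117 and 115 CPM in members and 0.579 and 0.516 CPM in the other kept cells (log2 fold change 7.58, SE 0.20, adjusted p = 3.8e-05), and *Flt1*, the decoy receptor, 317 and 232 CPM against 25.1 and 16.4 CPM (log2 fold change 3.59, SE 0.30, adjusted p = 0.0015). The angiopoietin receptor *Tek* had 74.4 and 68.0 CPM against 0.553 and 0.418 CPM and a log2 fold change of 7.05 ± 0.25. Thus *Kdr* and *Tek* were below 1 CPM outside the members, whereas *Flt1* was not. On the side of the ligands, *Pgf*, placental growth factor, had 101 and 92.5 CPM against 6.04 and 3.0 CPM (log2 fold change 4.27, SE 0.39, adjusted p = 0.0020) and *Angpt2* 229 and 210.2 CPM against 107 and 100.3 CPM (0.94, adjusted p = 0.012). *Vegfa* (39.7 and 75.4 CPM against 26.0 and 15.9 CPM, adjusted p = 0.079) and *Vegfc* (37.7 and 37.7 CPM against 12.5 and 25 CPM, adjusted p = 0.15) missed the threshold and passed it with the block (adjusted p = 0.00027 and 0.00091). *Vegfa* also passed without mixed barcodes (adjusted p = 0.046), with thinned cells (0.033), with no low-count filter (0.025) and by DESeq2 (0.015). *Nrp1*, a co-receptor, had 172 and 189.6 CPM against 185 and 108 CPM, with overlapping groups. Of 12 genes of sprouting tip cells, 7 were higher and 2 were lower (8 and 4 with the block). Here *Cxcr4* (4.08 and 9.14 CPM against 0.0426 and 0.0574 CPM) and *Apln* (11.2 and 9.14 CPM against 1.80 and 0.844 CPM) were low in absolute terms, and the tip cell gene *Esm1* was lower (13.2 and 18.3 CPM against 27.6 and 29.7 CPM, log2 fold change -1.0 ± 0.22).

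Notch receptors, ligands and targets were tested next. Of 13 genes, 7 were higher and 2 were lower (9 and 4 with the block), with a median log2 fold change of 2.53, also with *Heyl* at its bound. Of the receptors, *Notch1* had 119 and 95.9 CPM in members and 18.1 and 15.7 CPM in the other kept cells (log2 fold change 2.53, SE 0.19, adjusted p = 0.0010) and *Notch4* 49.9 and 40.0 CPM against 0.460 and 0.402 CPM (log2 fold change 6.56, SE 0.26, adjusted p = 0.0001). *Notch2*, in contrast, was lower (4.59 and 6.28 CPM against 13.5 and 13.1 CPM, log2 fold change -1.44 ± 0.28), and *Notch3*, the receptor of smooth muscle, had 11.7 and 4.0 CPM against 21.4 and 9.82 CPM and missed the threshold (adjusted p = 0.27, 0.0021 with the block and 0.027 without mixed barcodes). Besides *Dll4*, the ligand *Jag2* was nearly specific for members (27.0 and 21.7 CPM against 0.0340 and 0.0410 CPM, log2 fold change 9.13 ± 0.38), while *Jag1* was not (57.1 and 71.4 CPM against 45.5 and 42.7 CPM, adjusted p = 0.19, and 0.046 with the block). Of the targets, *Nrarp*, a feedback inhibitor, had 74.4 and 108 CPM against 0.366 and 0.254 CPM (8.05) and *Hey1* 32.1 and 39.4 CPM against 2.84 and 0.992 CPM (4.07). *Heyl*, a target known from smooth muscle, had 0 UMIs in members and was at least 4.6-fold lower than in the other kept cells.

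The study asks how VSMCs make cGMP, and genes that send or receive cGMP signals were divided between the classes. Of 22 vasoactive genes tested on a list of 23, 7 were higher in members and 8 were lower, with a median log2 fold change of -0.09. Endothelial nitric oxide synthase *Nos3*, which makes the activator of soluble guanylyl cyclase, had 88.2 and 101 CPM in members and 0.647 and 0.492 CPM in the other kept cells (log2 fold change 7.23, SE 0.25, adjusted p = 7.2e-05). It was detected in 62.7% of members in library 1 (95% confidence interval 52.6 to 72.1%) and 54.6% in library 2 (46.0 to 63.0%), against 1.53% and 0.883% of the other kept cells. The subunits of soluble guanylyl cyclase itself were lower in members: *Gucy1a1* with 11.2 and 6.85 CPM against 28.9 and 42.9 CPM (log2 fold change -2.11, SE 0.32, adjusted p = 0.010) and *Gucy1b1* with 12.2 and 7.42 CPM against 23.0 and 28.6 CPM (log2 fold change -1.51, SE 0.28, adjusted p = 0.021). Also lower were the cGMP-dependent protein kinase *Prkg1* (10.7 and 8.57 CPM against 30.6 and 23.9 CPM, log2 fold change -1.64 ± 0.27) and *Pde5a*, the phosphodiesterase that degrades cGMP (18.9 and 26.8 CPM against 101 and 92.2 CPM, -2.23 ± 0.22). *Pde2a* (3.06 and 2.28 CPM against 0.0511 and 0.0328 CPM) and *Pde9a* (3.57 and 2.28 CPM against 0.145 and 0.0738 CPM) were higher.

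The 3 natriuretic peptide receptors did not go the same way. *Npr1*, which encodes the ANP receptor GC-A, had 45.4 and 38.3 CPM in members and 1.33 and 1.69 CPM in the other kept cells (log2 fold change 4.66, SE 0.24, adjusted p = 0.00022) and was detected in 54.9% of members in library 1 (95% confidence interval 44.7 to 64.8%) and 32.6% in library 2 (25 to 41.0%), against 2.58% and 2.68% of the other kept cells. *Npr2*, which encodes the CNP receptor GC-B, was lower in members, with 25.5 and 25.1 CPM against 35.9 and 49.7 CPM (log2 fold change -0.89, SE 0.21, adjusted p = 0.042). *Npr3*, the clearance receptor, had 56.1 and 37.1 CPM against 227 and 177 CPM (log2 fold change -2.26, SE 0.26, adjusted p = 0.0042), and without the mixed members its log2 fold change was -5.20. So *Npr1* was the one receptor of the 3 that was higher in members. The call for *Npr2* rested on a difference of less than 2-fold. This call was lost under scaling by total UMIs (log2 fold change -0.76, adjusted p = 0.085), thinning (-1.41, adjusted p = 0.059) and without Prox1-positive members (-0.78, adjusted p = 0.074). *Nppc*, which encodes CNP and is known as an endothelial product, was detected in 0 of 102 and 0 of 141 members. A count of 0 allows up to 2.94% and 2.13% of such cells to hold a UMI and sets no limit on the cells that express the gene. In the other kept cells 2 and 4 cells had one.

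Endothelin genes were in excess. *Edn1*, the precursor of the vasoconstrictor endothelin-1, had 726 and 543 CPM in members and 30.9 and 94.0 CPM in the other kept cells (log2 fold change 3.22, SE 0.52, adjusted p = 0.013), and *Ece1*, which converts it, 296 and 243 CPM against 73.7 and 70.0 CPM (log2 fold change 1.77, SE 0.16, adjusted p = 0.0021). *Edn1* was also found in 26.1% and 47.5% of the other kept cells, and its level there differed 3-fold between the libraries while staying below that of members. The receptor *Ednrb* was nearly confined to members, with 208 and 343 CPM against 0.145 and 0.385 CPM (log2 fold change 9.88, SE 0.55, adjusted p = 0.00033). It was found in 49.0% of members in library 1 (95% confidence interval 39.0 to 59.1%) and 55.3% in library 2 (46.7 to 63.7%), against 0.336% and 0.494% of the other kept cells. *Ptgis* had 205 and 248 CPM against 178 and 222 CPM and the groups overlapped (adjusted p = 0.89), while within the members it was almost absent from Prox1-positive cells as described above.

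**Figure D4:**
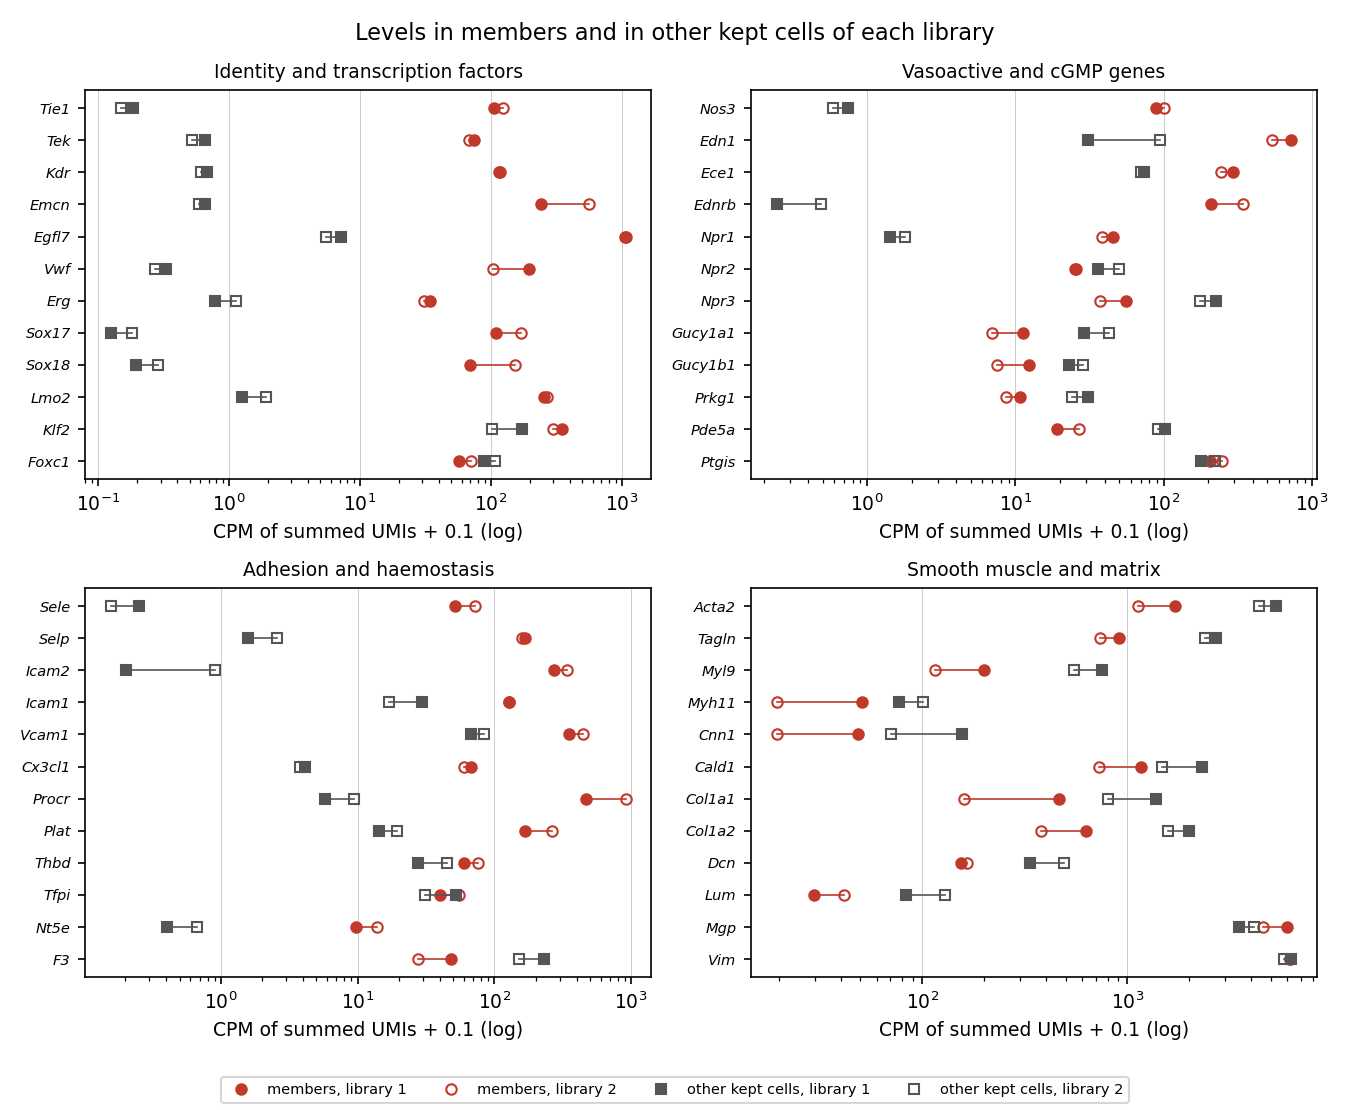
CPM of summed UMIs plus 0.1 (log scale) in members (red circles) and other kept cells (grey squares), filled for library 1 and open for library 2, for 48 genes in 4 groups. Tie1 and Sox17 lie over 100-fold apart, Nos3, Edn1, Ednrb and Npr1 lie to the right in members and Npr2, Npr3, Gucy1a1, Gucy1b1, Prkg1 and Pde5a to the left, and Ptgis, Tfpi and Vim overlap.

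Of 12 genes of leukocyte adhesion and inflammation, 7 were higher in members, 0 were lower and 5 were not called (9 higher and 1 lower with the block). Their median log2 fold change was 1.97. P-selectin *Selp* had 168 and 159 CPM in members and 1.48 and 2.47 CPM in the other kept cells (log2 fold change 6.24, SE 0.29, adjusted p = 0.00016), and E-selectin *Sele*, which inflammatory signals induce, 51.5 and 72.0 CPM against 0.153 and 0.0574 CPM (log2 fold change 9.03, SE 0.47, adjusted p = 0.00024). Both selectins were below 3 CPM in the other kept cells. *Icam2*, a constitutive adhesion molecule of ECs, had 272 and 338 CPM against 0.102 and 0.812 CPM (9.25). *Vcam1* (349.6 and 441 CPM against 66.9 and 84.1 CPM, 2.26) and *Icam1* (129 and 127 CPM against 29.4 and 16.9 CPM, 2.32) were expressed by the other cells too. The membrane-bound chemokine *Cx3cl1* had 67.3 and 59.4 CPM against 4.03 and 3.70 CPM and a log2 fold change of 3.90 ± 0.19. *Cxcl1* and *Il6* did not pass, and neither did *Ccl2*, whose members differed between the libraries (64.7 and 197 CPM against 40.9 and 32.9 CPM, adjusted p = 0.077, and 7.6e-05 with the block). *Ccl2* also passed by DESeq2 (adjusted p = 0.0075), with no low-count filter (0.018), with thinned cells (0.019) and without mixed barcodes (0.042).

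Among 11 genes of haemostasis, 4 were higher and 2 lower in members, with a median log2 fold change of 0.77. The protein C receptor *Procr* had 466 and 911 CPM in members and 5.70 and 9.24 CPM in the other kept cells (log2 fold change 6.40, SE 0.46, adjusted p = 0.0008), and tissue plasminogen activator *Plat* 167 and 264 CPM against 14.2 and 19.3 CPM (log2 fold change 3.56, SE 0.29, adjusted p = 0.0013). Tissue factor *F3*, which starts coagulation, was lower (48.4 and 27.4 CPM against 233 and 150.5 CPM, log2 fold change -2.48 ± 0.35). Members thus had more *Plat* and less *F3* than the cells around them in both libraries. Thrombomodulin *Thbd*, a cofactor of protein C activation, had 59.6 and 75.4 CPM against 27.6 and 44.7 CPM and missed the threshold (adjusted p = 0.11, 0.00018 with the block and 0.044 without mixed barcodes), and *Tfpi* overlapped.

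Of 11 junction genes tested, 5 were higher and 1 was lower (7 and 3 with the block). *Esam*, an adhesion molecule at tight junctions, had 349 and 362 CPM in members and 1.44 and 2.66 CPM in the other kept cells (log2 fold change 7.31, SE 0.35, adjusted p = 0.00018). Occludin *Ocln* had 63 UMIs in members and 3 in all other cells, a ratio of 1354 (counting interval 443 to 6742), and *Tjp1*, the scaffold ZO-1, 155 and 149.6 CPM against 32.2 and 47.5 CPM (1.80). Connexin genes went opposite ways, *Gja5* up as given above and *Gja1* down, with 69.3 and 76.0 CPM against 151 and 216 CPM (log2 fold change -1.47, SE 0.20, adjusted p = 0.0078). Of 7 caveolar and transcytosis genes, 2 were higher and 0 lower (5 and 2 with the block). The higher genes of the main fit were *Plvap* (279 and 278 CPM against 2.94 and 5.63 CPM, 5.89 ± 0.35) and *Ehd4* (264 and 231 CPM against 39.7 and 36.2 CPM, 2.57 ± 0.16). Caveolin *Cav1*, the coat protein of caveolae, was shared with the other cells and did not pass (512 and 619 CPM against 257 and 485 CPM, adjusted p = 0.32, and 0.00027 with the block).

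ECs signal to smooth muscle through secreted and membrane-bound ligands. Of 16 ligand genes tested, 8 were higher in members and 3 lower, with a median log2 fold change of 1.15. *Pdgfb*, which recruits mural cells, had 96.3 and 78.2 CPM in members and 0.426 and 0.344 CPM in the other kept cells (log2 fold change 7.68, SE 0.25, adjusted p = 6e-05). *Bmp6*, an iron-responsive morphogen, had 99.9 and 94.8 CPM against 0.647 and 0.631 CPM (log2 fold change 7.11, SE 0.19, adjusted p = 3.8e-05), *Tgfb1* 249.7 and 268 CPM against 32.4 and 36.0 CPM (2.78) and *Hbegf* 264 and 154 CPM against 70.7 and 59.2 CPM (1.55). *Tgfb2* was lower (25.5 and 53.1 CPM against 107 and 174 CPM, -1.97 ± 0.38), so that the TGF-beta ligands went opposite ways, and *Pdgfa* did not pass (63.7 and 82.8 CPM against 72.5 and 97.3 CPM, adjusted p = 0.32, and 0.040 with the block). The receptor of PDGF-BB, *Pdgfrb*, was lower in members, with 60.1 and 43.4 CPM against 192 and 159 CPM, and in the unmixed members it had 7.59 and 13.3 CPM. Of 12 basement membrane genes 2 were higher, *Col18a1* (349 and 268 CPM against 19.2 and 29.5 CPM, 3.54 ± 0.26) and the laminin chain *Lama5* (47.4 and 46.3 CPM against 9.82 and 18.4 CPM, 1.61 ± 0.31), and *Nid1* was lower (151 and 137 CPM against 301 and 238 CPM, -1.05 ± 0.19). With the block, 2 were higher and 6 lower, where 2038 of all 14424 genes tested were higher and 2676 lower. The collagen IV genes *Col4a1* and *Col4a2* had overlapping levels.

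Of 10 genes tested on a list of antigen presentation, interferon-responsive and Ly6 genes, 7 were higher (*H2-K1*, *H2-D1*, *H2-Ab1*, *Bst2*, *Ly6a*, *Ly6c1* and *Ly6e*) and 0 lower, with a median log2 fold change of 1.81. *B2m*, the light chain of class I, did not pass (adjusted p = 0.089, and 3.1e-08 with the block). *B2m* also passed by DESeq2 (adjusted p = 0.031), with no low-count filter (0.037), with thinned cells (0.048) and without mixed barcodes (0.030). *H2-K1* had 470.3 and 477 CPM in members and 37.2 and 41.3 CPM in the other kept cells (log2 fold change 3.46, SE 0.15, adjusted p = 0.00013), *H2-D1* 365 and 504 CPM against 37.7 and 62.8 CPM (2.98) and *Ly6a* 694 and 753 CPM against 335 and 264 CPM (1.13). Of class II, *H2-Aa* had 0 UMIs in members and the called *H2-Ab1* had 2.04 and 4.0 CPM against 0.145 and 0.164 CPM. The level of *Ly6a* in the other cells shows that it did not mark ECs in this culture. Of 7 lipid genes, *Fabp4* and *Gpihbp1* were higher and *Fabp5* was lower (553 and 519.7 CPM against 829.6 and 718 CPM, -0.67 ± 0.15). Of 8 glycolysis genes, *Pgk1* (731 and 635 CPM against 280.2 and 297 CPM, 1.11 ± 0.14), *Hk1* (1.01) and *Pfkfb3* (1.51) were higher. *Hk2* was lower (4.59 and 5.71 CPM against 24.7 and 12.9 CPM, -2.02 ± 0.48). Under 3 alternatives each, *Pfkfb3* (log2 fold changes from 1.09 to 1.49) and *Hk2* (from -1.57 to -1.92) lost their calls.

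Genes that ECs gain when they turn mesenchymal were also on a list. Of 11 such genes, 5 were lower and 1 was higher (8 and 2 with the block), with a median log2 fold change of -0.90. *Snai1* (7.13 and 12 CPM against 34.5 and 29.4 CPM, -1.89 ± 0.29), *Snai2* (20.9 and 26.3 CPM against 54.3 and 57.3 CPM, -1.38 ± 0.18) and *Zeb2* (98.9 and 87.9 CPM against 164 and 154 CPM, -0.90 ± 0.15) were lower, and *Zeb1*, a repressor of the same family, was higher (81.0 and 80.5 CPM against 43.0 and 46.5 CPM, 0.72 ± 0.14). *S100a4* had 1093 and 1139.9 CPM against 2581 and 3319.7 CPM (log2 fold change -1.53, SE 0.16, adjusted p = 0.0032). *Vim*, the intermediate filament of all these cells, overlapped, at 6213 and 6193 CPM in members and 6277 and 5803 CPM in the other kept cells.

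Some genes of the smooth muscle and matrix programme were lower in members, and how many were called depended on the mixed barcodes. Of 13 contractile genes, 6 were lower and 0 higher, with a median log2 fold change of -1.78. With the block 12 were lower. Smooth muscle actin *Acta2* had 1700.4 and 1131 CPM in members and 5281 and 4363 CPM in the other kept cells (log2 fold change -1.91, SE 0.24, adjusted p = 0.0057), and in the unmixed members it had 437 and 193 CPM. *Tagln*, the gene of SM22-alpha, had 909 and 733 CPM against 2717 and 2401 CPM (log2 fold change -1.78, SE 0.17, adjusted p = 0.0026), and 121 and 102 CPM in the unmixed members. Smooth muscle myosin *Myh11* had 51.0 and 19.4 CPM against 76.9 and 101 CPM and missed the threshold with all members (adjusted p = 0.065, and 3.3e-05 with the block), whereas the unmixed members held 0 and 1 *Myh11* UMI. *Myh11* also passed by DESeq2 (adjusted p = 0.013), with no low-count filter (0.013), with thinned cells (0.0078) and without Prox1-positive members (0.0077). The unmixed members were chosen by a list that includes these genes, so that their levels follow from the choice and were not tested as a result. Over all 14 genes of matrix and modulated VSMCs, 10 were lower and 0 higher, with a median log2 fold change of -1.87 (13 lower and 1 higher with the block). *Col1a2* (631 and 379 CPM against 1995 and 1580.2 CPM, -1.97 ± 0.28) and *Dcn* (154 and 166 CPM against 336 and 490.2 CPM, -1.50 ± 0.20) were among the lower genes. *Mgp*, an inhibitor of calcification that ECs also make, was the exception, with 5962 and 4561 CPM against 3509 and 4131 CPM (adjusted p = 0.27, and 0.0068 with the block). Of 5 pericyte genes 4 were lower, *Rgs5* with 30.1 and 24.6 CPM against 87.2 and 98.5 CPM (-1.90 ± 0.17) and *Cspg4* with 9.17 and 5.71 CPM against 39.5 and 50.5 CPM (-2.72 ± 0.27).

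Among called genes with at least 20 CPM in the other kept cells of both libraries, the 12 lower genes with the largest change were *Penk*, *Dnm3os*, *Glipr1*, *Gpc3*, *Sox9*, *Abca8a*, *Gas1*, *Cdh11*, *Cspg4*, *Fibin*, *Dpt* and *Adam23*. *Cdh11*, a cadherin of mesenchymal cells, had 49.9 and 40.0 CPM in members and 307 and 229.8 CPM in the other kept cells (log2 fold change -2.72, SE 0.23, adjusted p = 0.0016). The chondrogenic factor *Sox9* (chr11:112782224-112787760, plus strand) had 6.62 and 11.4 CPM against 35.5 and 86.4 CPM (log2 fold change -2.89, SE 0.53, adjusted p = 0.021), and *Penk*, the enkephalin precursor, 2.55 and 2.28 CPM against 33.6 and 22.9 CPM (log2 fold change -3.69, SE 0.39, adjusted p = 0.0034). The log2 fold changes of the 12 ran from -3.69 to -2.58. The RNA *Dnm3os*, a host of miRNAs, had 4.59 and 4.0 CPM against 30.9 and 34.1 CPM. Since the mixed members carry smooth muscle and fibroblast UMIs, 3 of the 12 genes are given without them: *Cdh11* then had a log2 fold change of -6.06, *Sox9* of -6.36 and *Glipr1* of -6.04. The unmixed members were chosen for few UMIs of smooth muscle and fibroblast genes, so that larger changes in genes of those cells can follow from the choice.

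The other kept cells are not uniform, and members were therefore also compared with 2 kinds of them. Contractile cells were non-members with at least 5 *Myh11* UMIs (473 and 879 cells), and modulated cells were non-members with 0 *Myh11* UMIs and at least 2 UMIs each of *Lum* and *Pdgfra* (698 and 1070 cells). These 3 genes were left out of the fit. Of 13194 genes, 1179 were higher (8.94%) and 1099 lower (8.33%) in members than in contractile cells, and 1264 were higher (9.58%) and 942 lower (7.14%) than in modulated cells. With the block the counts were 1797 and 1996, and 1951 and 2038. All 18 identity genes and 17 of 22 transcription factors were higher in both comparisons.

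Against contractile cells, *Adgrl4*, an adhesion G protein-coupled receptor of ECs, had 164 and 159 CPM in members and 0 and 0 CPM in contractile cells. With 599 UMIs in members and 0 in contractile cells it was at least 1765-fold higher. *Fgd5*, a Cdc42 regulator of ECs, also had 0 UMIs in contractile cells and was at least 931-fold higher, and *Car8* had 1457 UMIs against 2. The named lower genes were *Susd5*, which had 0 UMIs in members and was at least 41.9-fold lower, the potassium channel subunit *Kcnmb1* (0.510 and 1.71 CPM in members and 52.1 and 63.0 CPM in contractile cells, log2 fold change -5.89, SE 0.36, adjusted p = 0.00043) and the kinase *Mylk4* (0.510 and 10.3 CPM in members and 113 and 154 CPM in contractile cells, log2 fold change -4.84, SE 0.74, adjusted p = 0.0082), besides *Ptprz1* and *Cap2* with log2 fold changes of -5.10 and -5.02.

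Against modulated cells, *Icam2* had 272 and 338 CPM in members and 0 and 0.0458 CPM in modulated cells, with 1 UMI in all modulated cells and a ratio of 12831 (counting interval 2298 to 507232), and *Tmem252* and *Mall* were at least 1198- and 1194-fold higher. *Myct1* shows how the reference matters: it had 306 and 369 CPM in members and 0.0487 and 0.0458 CPM in modulated cells and 6.72 and 1.90 CPM in contractile cells. The named lower genes were *Abca8a* (6.11 and 2.86 CPM in members and 56.7 and 48.3 CPM in modulated cells, log2 fold change -3.62, SE 0.77, adjusted p = 0.026), *Mmp3*, a matrix protease (11.2 and 9.71 CPM in members and 40.5 and 160.3 CPM in modulated cells, log2 fold change -3.35, SE 0.71, adjusted p = 0.026), *Dnm3os*, *Dpt* and *Cdh11* (49.9 and 40.0 CPM in members and 348 and 367 CPM in modulated cells, log2 fold change -3.09, SE 0.51, adjusted p = 0.012). Of the 13 contractile genes, 12 were tested in these fits, of which 9 were lower in members than in contractile cells and 0 lower than in modulated cells. Of the 14 matrix genes, 12 were tested, of which 5 were lower than in contractile cells and 7 lower than in modulated cells. Both reference classes were chosen by genes of these programmes, so that these counts follow in part from the choice.

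Cell cycle transcripts were present in members, some at a lower level than in the other cells. Of 14 cell cycle genes, 3 were lower and 0 higher (9 lower with the block), with a median log2 fold change of -0.46. Over all 14424 genes tested, 902 (6.25%) were lower, and 2676 with the block. *Ccnb1*, cyclin B1, had 39.7 and 38.3 CPM in members and 74.2 and 63.3 CPM in the other kept cells (log2 fold change -0.96, SE 0.18, adjusted p = 0.021), and *Tpx2* and *Rrm2* had log2 fold changes of -0.99 and -0.97. *Mki67* had 121 and 154 CPM against 194 and 157 CPM and *Top2a* 145 and 214 CPM against 246 and 186 CPM, with adjusted p-values of 0.17 and 0.33 (0.0097 and 0.057 with the block). UMIs of both *Mki67* and *Top2a* were found in 18.6% of members in library 1 (95% confidence interval 11.6 to 27.6%) and in 15.6% in library 2 (10.0 to 22.7%), and in 32.2% and 26.8% of the other kept cells. Unmixed members had 11.1% and 12.2%. The depth of these cells differs, and with every cell thinned to 3000 UMIs *Mki67* was expected in 13.6% and 12.8% of members against 24.5% and 21.1% of the other cells. Mixed barcodes and depth thus move with these values, and beyond these settings their part in the result was not tested. With other cells matched in UMI count, *Ccnb1* and *Rrm2* no longer passed (log2 fold changes of -0.77 and -0.69, against -0.96 and -0.97, adjusted p = 0.083 and 0.083). Without mixed barcodes 6 cell cycle genes were lower.

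Markers of further cell types were few. Of 8 macrophage genes, *Ptprc*, *Adgre1*, *C1qa* and *C1qb* had 0 UMIs in members, and *Csf1r* had 10 (1.53 and 4.0 CPM against 5.08 and 3.21 CPM, adjusted p = 0.44). *Cd68* had 6.62 and 19.4 CPM against 3.0 and 2.96 CPM and a log2 fold change of 1.98, with an adjusted p of 0.053, and of 0.00055 with the block. *Lyz2* was lower (1.53 and 1.14 CPM against 29.1 and 15.7 CPM, -4.20 ± 0.59) and *Cd14* higher (13.8 and 5.14 CPM against 1.95 and 1.78 CPM, 2.21 ± 0.50). *Cd14* lost its call when the Prox1-positive members were left out (log2 fold change 0.75, adjusted p = 0.35). The call was also lost with at least 3 of the 4 rule genes (2.17, adjusted p = 0.051) and when thinned (1.67, adjusted p = 0.19). The part of such cells in the members' values was not tested. The list summed to 23.4 and 29.7 CPM in members and to 45.9 and 24.4 CPM in the other kept cells. Of 3 adipocyte genes, *Adipoq* and *Cidec* had 0 UMIs in members and *Plin1* had 2, all in library 1 (adjusted p = 0.52). Erythroid genes had 0 UMIs in members, and mesothelial genes 0 in members. Of the Schwann cell genes, *Sox10* had 0 UMIs in members and *S100b* was lower (7.13 and 6.85 CPM against 19.4 and 24.5 CPM).

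The members of the 2 libraries were also set side by side, for which there is no test since each library is a single sample. The differences are of log2(CPM + 10), which shrinks those of genes with few UMIs. On this scale, over 301 genes of the lists and named genes, 245 (81.4%) differed by less than 1.5-fold between the members of the libraries and 21 by over 2-fold. Apart from sex-linked genes, differences in library 2 over library 1 included those of *Ccl2* (1.47), *Emcn* (1.19), *Sox18* (1.04), *Aqp1* (1.02) and *Procr* (0.95), and in the opposite direction those of *Col3a1* (-1.66), *Des* (-1.62), *Tpm2* (-1.60) and *Col1a1* (-1.48). For *Aqp1* the other kept cells differed as much (1.03). For *Col3a1*, *Des*, *Tpm2* and *Col1a1* the values of the other kept cells were -0.51, 0.02, -0.73 and -0.77. The members compared here include the mixed ones, which held most of the members' UMIs of the smooth muscle and fibroblast list. The part of mixed members in these differences was not tested. For *Emcn* and *Sox18* the values of the other kept cells (-0.01 and 0.01) decide nothing, since their levels there were far below the 10 CPM added.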

How the data were processed

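UMI counts of 2 libraries of cultured aortic cells were used as deposited. The authors aligned the reads to mm10 with Cell Ranger (3.0.2 in the submitters' processing notes, and 3.1.0 in the header of library 2) and deposited counts of UMIs per gene and barcode without normalization. The gene lists, members and classes were chosen with earlier results of these data known. The minimum for a kept barcode was 300 genes and 3000 UMIs, its mitochondrial share had to be below 20%, and doublets were not removed. UMIs were summed per class and library, and the sums were tested with edgeR 4.0.16 in R 4.3.3 (quasi-likelihood test, TMM, filterByExpr, Benjamini-Hochberg adjustment over all genes tested, threshold 0.05), a procedure tested on simulated data. Named genes were the 12 in each direction with the largest log2 fold change among called genes with at least 20 CPM in the higher class in both libraries (5 in each direction against contractile and modulated cells), and the genes of the lists, of which some are not reported here. The sums hold 1962507 and 1751038 UMIs in members and 117508486 and 121983883 UMIs in the other kept cells, and intervals and floors of 3 counts cover counting error only. With 2 against 2 libraries, an exact permutation test cannot go below 0.33, so none was run. Members and other cells of a library come from the same culture, and their deviations from the class means correlated (r = 0.295 across 14424 genes, which are not independent replicates), as they did against contractile (0.34) and modulated cells (0.346). Alternatives were the library as a block, DESeq2 1.42.0 and its size factors, total UMIs, other filters and rules, matched or thinned cells, and subtraction of free RNA (5% of UMIs, from barcodes with 1 to 100 UMIs). Added after the data were seen were leaving out mixed barcodes with the block, or against contractile and modulated cells, and leaving out all members with any *Prox1* UMI. Coordinates are those of GENCODE M21 on GRCm38.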

Additional observations from a re-analysis of the deposited data

Results flagged for a closer look

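Barcodes outside the filters were searched for the same marker genes. In library 2, 6 barcodes met the marker rule but had under 3000 UMIs. In library 1 there were 3 such barcodes, 2 under 3000 UMIs and 1 at or over 20% mitochondrial UMIs. They entered no comparison.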

How the results depend on the processing

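Of 179 named gene comparisons, 140 kept their side of the threshold, and where called their direction, under those alternatives that were run for them, other than leaving out a library. None of the alternatives reversed the direction of a call (0 reversals), but several of them do not hold a value for every comparison. A change of sign in a gene that passed the threshold in neither fit was not counted. The share of members was 1.77% with at least 3 of the 4 genes, 2.14% with 1 UMI per gene, 1.90% with a minimum of 1000 UMIs and 1.45% with cells thinned to 3000 UMIs. Leaving out a library left 102 to 141 members and single sums without a test. With the library as a block, which pairs the sums of a culture, 2038 genes were higher and 2676 lower than in the other kept cells, 1797 and 1996 than in contractile cells, and 1951 and 2038 than in modulated cells. Without mixed barcodes the lower genes numbered 1812, 1892 and 1913 in these comparisons, and with the block added 2102 genes were higher and 2953 lower than in the other kept cells. Calls were lost for *Gucy1b1*, *Prkg1*, *Notch2*, *Heyl*, *Ptgs1*, *Cd14*, *Pfkfb3*, *Foxc1*, *Npr2*, *Hk2* and *Apln* when cells were thinned, for *Fabp5*, *Esm1*, *Foxc1*, *Hk2*, *Npr2* and *Pdpn* with total UMIs, for *Foxc1*, *Ccnb1* and *Rrm2* with matched cells, for *Cd14* and *Pfkfb3* with at least 3 of the 4 genes, and for *Angpt2*, *Fabp4*, *Foxc1*, *Npr2*, *Nrp2*, *Sox9*, *Tgfb2*, *Esm1*, *Pfkfb3*, *Cd14* and *Hk2* without Prox1-positive members, and the cause was not tested. A lost call did not always come with a smaller change. With thinned cells the log2 fold changes were -2.10 for *Notch2*, -1.54 for *Prkg1* and -1.37 for *Gucy1b1*. Without Prox1-positive members they were -3.27 for *Sox9* and -1.92 for *Tgfb2*. Those of *Angpt2* (0.18), *Nrp2* (0.51), *Fabp4* (0.60) and *Cd14* (0.75) were then smaller than with all members. *Klf2* passed under 11 alternatives and *Cd68* under 10. The median of all tested genes moved from -0.08 to 0.06 with total UMIs, and the share of higher among called genes from 55.5% to 66.6%, and to 43.2% with the block. The small Prox1-positive sums limit what can be said of genes under 18.5 CPM.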
